A study of Mus musculus with 2 samples.

Results

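Cholesterol and fatty acid synthesis was followed through 33 genes: 17 enzymes of the sterol pathway, 4 genes of its regulation and transport, and 12 genes of fatty acid synthesis, desaturation and elongation. The genes were listed by name and role, with earlier results of these data known. All 33 were found among the 31053 genes counted in both libraries. RNA was counted in single YFP-positive cells sorted from livers of untreated Rb family triple knockout mice, a model of hepatocellular carcinoma, in which YFP marks Cre recombination of floxed alleles. Early lesions, pooled from 3 mice, gave 1 library, and macroscopic lesions, whose number of mice and ages the labels do not give, gave the other. Both libraries carry the same deletions, so neither is a normal liver, and the driver of Cre is not named in the labels.

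Cholesterol is made from acetyl-CoA by way of mevalonate, isoprenoid diphosphates, squalene and lanosterol. Fatty acids are built from the same acetyl-CoA by acetyl-CoA carboxylase and fatty acid synthase, and are then desaturated and elongated. Transcription factors of the SREBP family, released from the endoplasmic reticulum when sterols are low, switch on most of these genes. The liver is a main site of both pathways.

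A barcode stands for 1 droplet, and a UMI for 1 captured RNA molecule. Barcodes with at least 1000 UMIs were kept, 2620 in the early and 241 in the macroscopic library, and the libraries shared 0 barcodes. Hepatocyte-like barcodes were those with albumin (Alb) at or above 0.5% of UMIs, 67 early and 103 macroscopic. They were divided by Malat1, a nuclear RNA, at 0.05% of UMIs. With Malat1 there were 63 early barcodes (median 16074 UMIs) and 45 macroscopic ones (median 107248 UMIs). Without it there were 4 early barcodes, with a median of 93.5% mitochondrial UMIs, and 58 macroscopic ones (median 17791 UMIs). All 8 of the other hepatocyte markers checked, among them Apoa1, Ttr and Ahsg, were present in the barcodes with Malat1 of both libraries, at 36539 and 36789 summed CPM (UMIs per 1000000 UMIs of the summed barcodes). The 7 T cell markers checked summed to 0 and 1.81 CPM there. Duct markers, Krt8 and Krt18 among them, summed to 2247 and 2752 CPM, against 7622 CPM in early duct barcodes, and 12 of the 63 early barcodes met the rule of another class. No doublet caller was run.

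The other classes were also set by marker counts: 101 duct barcodes (Krt19, Krt7), 1932 Kupffer (Clec4f, Cd5l, Marco), 296 other macrophage (Gpnmb, Mmp12) and 76 T cell barcodes (Cd3e, Trbc2) in the early library. Of these, 96 met both macrophage rules. The macroscopic library held 1, 4, 12 and 20 such barcodes. The early T cell barcodes also held 4192 CPM of the macrophage gene Lyz2. There is 1 library per stage and no replicate, so no test was made, and every interval is a 95% interval that covers counting error only. The libraries also differ in sex (Xist had 10348 UMIs in the early and 0 in the macroscopic library), and sex and stage cannot be told apart.

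Promoter sequence from RefSeq (GRCm38.p6) was matched by symbol for 26 of the genes, in 32 windows from 250 bases before to 50 bases after a start site. The genes not matched were Fdps, Fdft1, Sqle, Stard4, Scd1, Scd2 and Fads1. The box CCAAT, bound by NF-Y, a factor that acts beside SREBP at sterol genes, was found on either strand in 14 of 14 sterol enzyme genes, in 3 of 3 regulator or transport genes and in 6 of 9 fatty acid genes. Of all 27025 genes with windows of the same length, 41.1% held it. GGGCGG, an SP1 box, was in 13 of 14 sterol enzyme genes and 4 of 9 fatty acid genes, against 38.2% of all genes. The E-box CACGTG was in 5 of the 26 genes, against 8.09% of all genes. The sterol element core TCACNCCAC was in 1 of 26, Hmgcs1, against 1.44% of all genes. A gene with several windows was counted once if any of them held the letters. Both strands were searched, each motif was counted separately, and the 1 match of the sterol element overlapped no CCAAT. A match is a run of letters and not evidence of binding.
The 250 bases before the start sites are shown for a sterol enzyme, a regulator and a fatty acid gene, Hmgcs1 for the element, and Insig1 and Fasn because they had the highest ratios between the libraries, of the regulators and of the fatty acid genes with a window (values below). Capitals mark CCAAT or its reverse ATTGG, and in Hmgcs1 also the element TCACCCCAC, which starts 137 bases before the start site. Hmgcs1 and Fasn show 3 CCAAT matches each, a pair of which overlap on opposite strands in Fasn, and Insig1 shows 1.
Hmgcs1, chr13:119690101-119690350, plus strand: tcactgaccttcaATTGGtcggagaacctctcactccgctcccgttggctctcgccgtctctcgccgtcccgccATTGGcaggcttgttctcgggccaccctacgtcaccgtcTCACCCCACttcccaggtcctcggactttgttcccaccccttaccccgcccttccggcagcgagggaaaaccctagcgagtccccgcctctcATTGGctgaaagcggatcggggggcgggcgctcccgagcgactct
Insig1, chr5:28071162-28071411, plus strand: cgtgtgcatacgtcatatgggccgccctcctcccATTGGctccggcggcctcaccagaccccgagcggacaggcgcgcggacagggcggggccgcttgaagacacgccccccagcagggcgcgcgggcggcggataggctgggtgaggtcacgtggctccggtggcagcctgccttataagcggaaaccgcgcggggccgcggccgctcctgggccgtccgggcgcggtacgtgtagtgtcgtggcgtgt
Fasn, chr11:120824548-120824797, minus strand: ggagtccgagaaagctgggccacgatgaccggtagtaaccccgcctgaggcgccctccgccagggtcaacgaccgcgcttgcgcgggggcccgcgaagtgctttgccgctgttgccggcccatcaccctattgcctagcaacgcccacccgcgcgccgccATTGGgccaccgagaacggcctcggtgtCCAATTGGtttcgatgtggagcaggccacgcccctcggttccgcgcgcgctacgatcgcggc

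The first comparison set the macroscopic library against the early one in hepatocyte barcodes with Malat1, at 3872359 and 1063333 summed UMIs. Scd1, Scd2, Fasn and the regulators Insig1 and Srebf1 were severalfold higher in the macroscopic library. Of the 17 sterol enzymes, 1 was at least 2-fold higher (5.88%, against 10.1% of all measured genes) and 3 lower (17.6%, against 14.8%). All 33 genes passed the minimum of 10 CPM in 1 sum and 20 UMIs in both sums together. In macroscopic barcodes 8 of them were higher by 2-fold or more, against 10.1% of the 9173 measured genes, and 3 were lower by as much, against 14.8%. The median log2 ratio was 0.22 (-0.21 to 0.67) over the 17 sterol enzyme genes, 0.92 (-0.18 to 2.01) over the 12 fatty acid genes, and -0.13 over all measured genes. The 4 regulator or transport genes lay between 0.23 and 2.62. Relative to the median of all measured genes, Lss (log2 ratio 1.13) and Acly (1.12) also passed 2-fold, and the 3 lower genes stayed so. The shares of all genes above are on the CPM scale and do not apply to relative values. The groups also differed in depth (medians of 16074 and 107248 UMIs) and in Malat1 (medians of 0.622% and 0.385% of UMIs), and less in mitochondrial UMIs (7.84% and 7.59%). The part of depth and Malat1 was not tested. Without the 5 deepest macroscopic barcodes the counts on the CPM scale were 10 and 3, and with at least 5000 UMIs per barcode 8 and 3. No share of all genes is given for these settings.

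**Figure D1:**
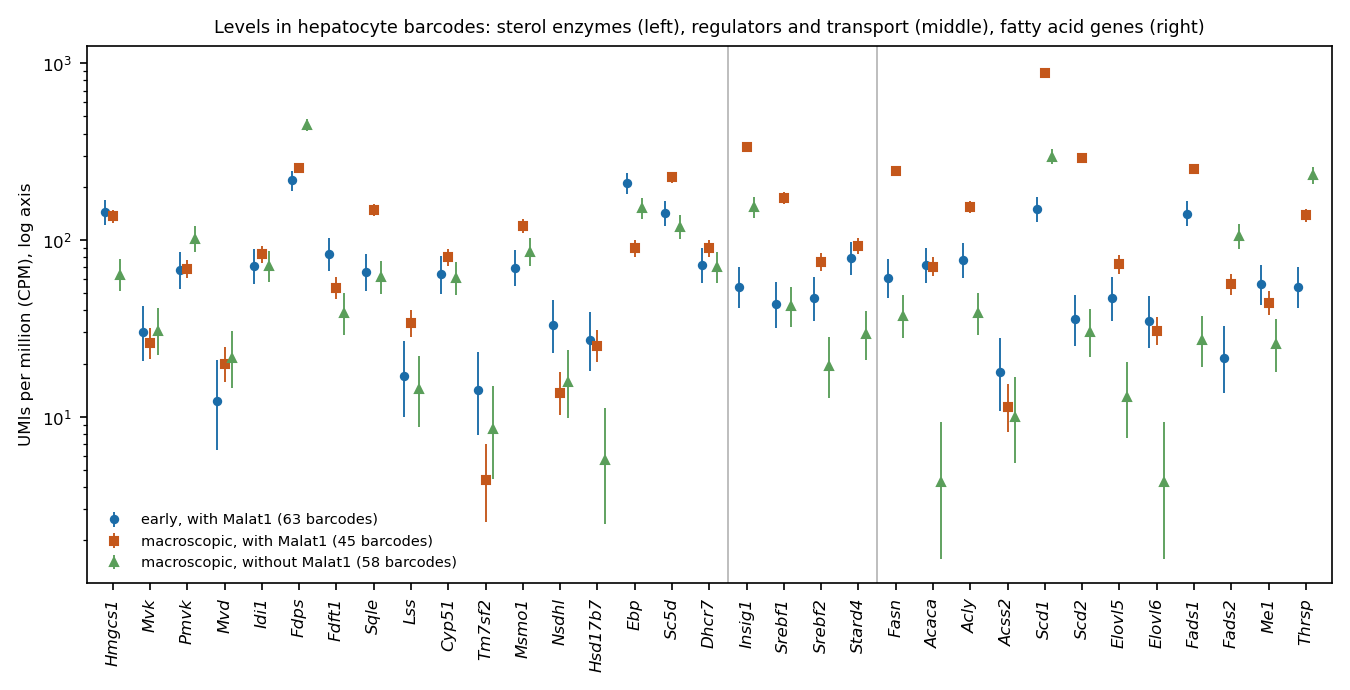
Level of each of the 33 genes (CPM, log axis) in summed hepatocyte barcodes of the early library with Malat1 and of the macroscopic library with and without Malat1; bars are 95% counting intervals. Scd1 reached 886 CPM in macroscopic barcodes with Malat1, the highest level in the plot, and Acaca and Elovl6 were at 4.29 CPM in those without.

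Among the sterol enzymes, the levels in the early library ran from 12.2 CPM for Mvd to 217 CPM for Fdps. In the macroscopic library they ran from 4.39 CPM for Tm7sf2 to 256 CPM for Fdps. Fdps makes farnesyl diphosphate, the branch point to sterols and to protein prenylation, and was the highest sterol enzyme gene in both. Its exon sequence overlaps the gene model Gm43738 on the same strand. Together the 17 genes summed to 1341 CPM in early and 1474 CPM in macroscopic barcodes.

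Sqle (chr15:59315077-59331192, plus strand), squalene epoxidase, the enzyme that commits squalene to sterols, was the only sterol enzyme at least 2-fold higher. It stood at 65.8 CPM (51.3 to 83.2) in early and 148 CPM (136 to 161) in macroscopic barcodes, a ratio of 2.25 (1.75 to 2.92). The intervals did not overlap. Lss, lanosterol synthase, which closes the sterol rings, lay just under 2-fold, at 16.9 and 33.8 CPM, a ratio of 1.998 (1.22 to 3.48).

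Msmo1, which removes methyl groups from sterols, stood at 69.6 and 120 CPM, a ratio of 1.72 (1.35 to 2.23). Sc5d, a desaturase of the late pathway, stood at 142 and 226 CPM, a ratio of 1.59 (1.34 to 1.90). Both were higher in the macroscopic library without reaching 2-fold. Fdft1, squalene synthase, the step just before Sqle, went the other way, at 83.7 and 53.7 CPM, a ratio of 0.642 (0.498 to 0.832).

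Hmgcs1, which makes HMG-CoA for mevalonate, stood at 144 CPM (122 to 169) and 136 CPM (125 to 148), a ratio of 0.948 (0.790 to 1.14). The intervals of Mvk, Pmvk, Mvd, Idi1, Cyp51, Hsd17b7 and Dhcr7 also held a ratio of 1, which does not show that the levels were equal. Their ratios ran from 0.867 for Mvk to 1.63 for Mvd. Dhcr7, the last step to cholesterol, stood at 72.4 and 89.9 CPM.

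The 3 genes lower by 2-fold or more in macroscopic barcodes all act after lanosterol. Ebp (chrX:8185329-8193512, minus strand), a sterol isomerase, stood at 210 CPM (183 to 239) in early and 89.6 CPM (80.4 to 99.6) in macroscopic barcodes, a ratio of 0.427 (0.360 to 0.508). Nsdhl (chrX:72918557-72958514, plus strand), a sterol dehydrogenase, stood at 32.9 CPM (22.9 to 45.8) and 13.7 CPM (10.3 to 17.9), a ratio of 0.416 (0.266 to 0.657). Tm7sf2 (chr19:6062821-6068373, minus strand), a sterol reductase, rested on 15 and 17 UMIs, or 14.1 and 4.39 CPM, a ratio of 0.311 (0.146 to 0.669). It shares exon sequence on its strand with Vps51, so reads of these genes may not be told apart.

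Ebp and Nsdhl are the X-linked genes of the list. The 231 measured X-linked genes, Xist left out, had a median log2 ratio of -1.08 (-1.15 to -0.97) in the same comparison, against -0.11 for 8925 autosomal genes, so the ratios of Ebp (-1.23) and Nsdhl (-1.27) lie close to the median of their chromosome. In T cell barcodes the X-linked median was -0.18 (-0.31 to 0.04) and the ratio of Ebp, over 29 UMIs, was 1.61 (0.724 to 3.60). In other macrophage barcodes the X-linked median was -0.32 (-0.42 to -0.18) and the ratio of Ebp was 1.57 (1.14 to 2.14). The macroscopic sum of that class rested on 12 barcodes, 4 of which also met another rule. It held 8494 summed CPM of hepatocyte markers, against 555 CPM in the early class. Nsdhl was at 0.706 (0.138 to 2.28) in other macrophage barcodes, over 3 macroscopic and 29 early UMIs, and had 2 UMIs in each T cell sum, too few for a ratio. Ebp lay inside 2-fold in hepatocyte barcodes with Alb at or above 0.25% (log2 ratio -0.90) and with all Alb barcodes, with and without Malat1 (-0.97). The part of sex, stage and other features of the libraries in these ratios was not tested. Over autosomal genes alone, 1 sterol enzyme gene, Tm7sf2, was at least 2-fold lower.

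**Figure D2:**
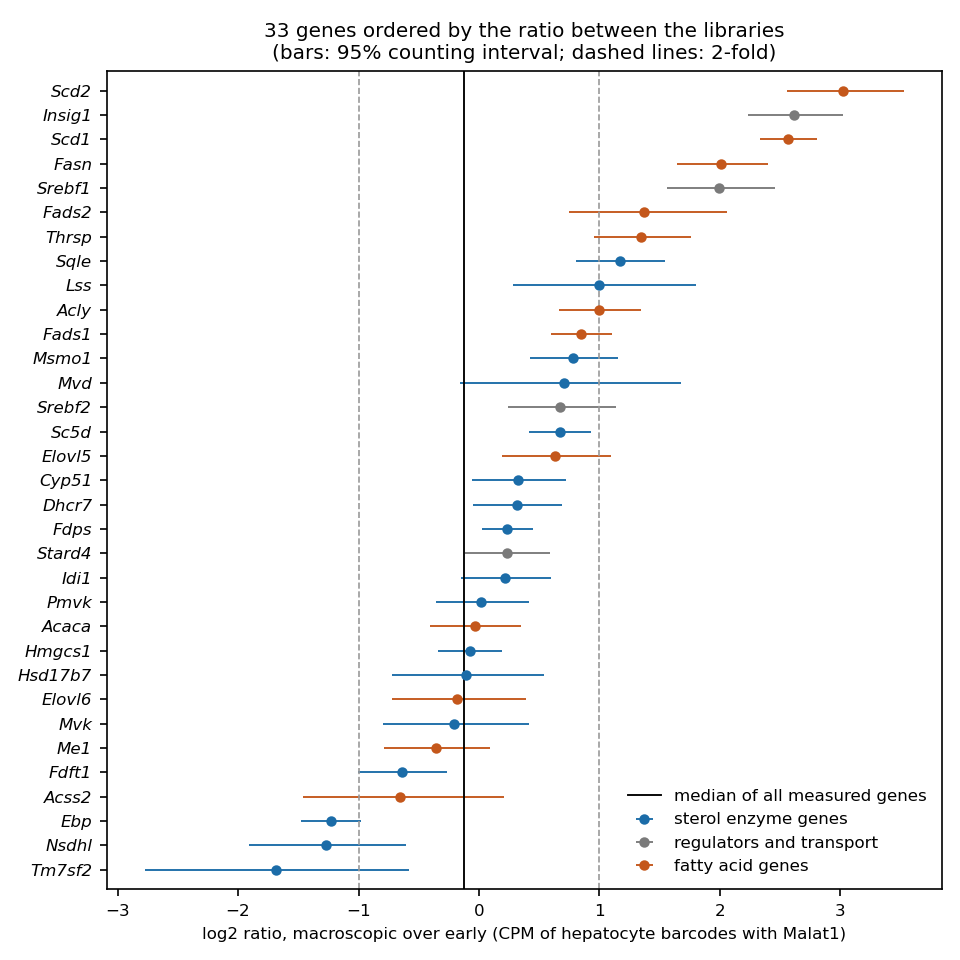
The 33 genes ordered by the log2 ratio of macroscopic over early CPM in hepatocyte barcodes with Malat1, coloured by role, with 95% counting intervals; dashed lines mark 2-fold and the solid line the median of all measured genes. Scd2 (3.02), Insig1 (2.62) and Scd1 (2.57) stand at the top, and Ebp, Nsdhl and Tm7sf2 at the bottom.

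Insig1 (chr5:28071363-28078662, plus strand), which holds SREBP proteins in the endoplasmic reticulum and is itself an SREBP target, stood at 54.5 CPM (41.4 to 70.5) in early and 334 CPM (316 to 353) in macroscopic barcodes, a ratio of 6.13 (4.71 to 8.11). The single barcode richest in it gave 17.8% of its macroscopic UMIs. Srebf1 (chr11:60199089-60222581, minus strand), the SREBP gene tied mainly to fatty acid synthesis, stood at 43.3 CPM (31.7 to 57.7) and 173 CPM (160 to 186), a ratio of 3.99 (2.96 to 5.50). Neither pair of intervals overlapped. Its exons on the same strand include the small RNA gene Mir6922.

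Srebf2, the SREBP gene tied mainly to cholesterol synthesis, stood at 47.0 CPM (34.9 to 62.0) and 75.2 CPM (66.8 to 84.3), a ratio of 1.60 (1.18 to 2.20). Stard4, which carries cholesterol between membranes, stood at 79.0 and 92.7 CPM, a ratio of 1.17 (0.923 to 1.51). The levels of these messages say nothing of how much SREBP protein was cut and active.

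The fatty acid genes summed to 769 CPM in early and 2254 CPM in macroscopic barcodes, and Scd1 gave the largest part of it. Scd1 (chr19:44394455-44407879, minus strand), the main stearoyl-CoA desaturase of liver, which makes monounsaturated fatty acids, stood at 150 CPM (127 to 175) and 886 CPM (856 to 916), a ratio of 5.92 (5.05 to 6.99). Scd2 (chr19:44293674-44306864, plus strand), a second desaturase of the same kind, stood at 35.7 CPM (25.3 to 49.1) and 290 CPM (274 to 308), a ratio of 8.12 (5.88 to 11.5), the highest of the list. These genes are close paralogs, and reads common to both could not be assigned with certainty. A small RNA gene, Mir5114, lies in Scd2 exon sequence.

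Fasn (chr11:120805846-120824547, minus strand), fatty acid synthase, stood at 61.1 CPM (47.2 to 77.9) and 246 CPM (231 to 262), a ratio of 4.03 (3.13 to 5.26). Thrsp (chr7:97412938-97417730, minus strand), a small protein that promotes lipogenesis, stood at 54.5 CPM (41.4 to 70.5) and 138 CPM (127 to 151), a ratio of 2.54 (1.93 to 3.39). Fads2 (chr19:10062765-10101746, minus strand), which begins the desaturation of essential fatty acids, stood at 21.6 CPM (13.7 to 32.5) and 56.0 CPM (48.8 to 64.0), a ratio of 2.59 (1.68 to 4.17). None of these pairs of intervals overlapped.

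Acly, which makes cytosolic acetyl-CoA from citrate, lay just under 2-fold at 77.1 and 154 CPM, a ratio of 1.996 (1.58 to 2.55). Fads1, the desaturase that follows Fads2 and is its neighbour and paralog, stood at 141 and 253 CPM, a ratio of 1.80 (1.51 to 2.15). Elovl5, an elongase of polyunsaturated chains, stood at 47.0 and 72.8 CPM, a ratio of 1.55 (1.14 to 2.14). These 3 were higher in the macroscopic library within 2-fold.

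The rest of the fatty acid list did not follow Fasn. Acaca, the acetyl-CoA carboxylase that feeds it, stood at 72.4 CPM (57.1 to 90.5) and 70.8 CPM (62.6 to 79.7), a ratio of 0.977 (0.756 to 1.27). The ratios of Elovl6 (0.883), Me1 (0.783) and Acss2 (0.636) were also below 1, with intervals that held 1. Elovl6 extends the products of Fasn, Me1 supplies NADPH, and Acss2 makes acetyl-CoA from acetate.

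The difference was also seen barcode by barcode. In early barcodes with Malat1, Scd1 had a median of 0.390 UMIs per 10000 UMIs (quartiles 0 and 1.32, highest 30.7). In macroscopic ones it had a median of 3.11 (quartiles 1.86 and 9.57, highest 32.4). The lower quartile of the macroscopic barcodes thus lay above the upper quartile of the early ones, although the highest barcodes of both libraries were alike and 1 early barcode gave 18.2% of early Scd1 UMIs. Scd2 had a median of 0 (quartiles 0 and 0.477) in early and 2.33 (1.39 and 3.98) in macroscopic barcodes. Insig1 had a median of 0 (0 and 0.745) and 1.74 (0.573 and 4.06), and Fasn a median of 0 (0 and 0.896) and 1.15 (0.537 and 2.61). The early barcodes were also shallower, with a median of 16074 UMIs against 107248.

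Shares of barcodes with a UMI were therefore also set at 5000 UMIs per barcode, which 58 early and 40 macroscopic barcodes reached. At that depth Scd2 was expected in 16.9% of the early and 69.2% of the macroscopic barcodes, Insig1 in 22.4% and 61.5%, Fasn in 23.4% and 52.0%, and Scd1 in 30.3% and 75.8%. At their own depth the shares of Scd1 were 52.4% (39.4 to 65.1) and 93.3% (81.7 to 98.6). Free RNA can give a UMI to cells that do not express a gene. In T cell barcodes, which should lack Scd1, a UMI of it was found in 1.32% of early barcodes (median 2678 UMIs) and 10.0% of macroscopic ones (median 7641 UMIs), at 4.27 and 12.8 CPM. Hmgcs1 was expected in 46.1% and 40.6% of hepatocyte barcodes at 5000 UMIs, and Ebp in 62.2% and 38.3%, in the order of their CPM.

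Other lipid genes were set beside these in the same barcodes, from lists given by function. Of 22 genes of fatty acid oxidation and ketogenesis, all measured, macroscopic barcodes had 1 higher and 6 lower by 2-fold or more, and their median log2 ratio was -0.52. The shares over all measured genes were 10.1% higher and 14.8% lower, and the counts of the shorter lists below, of 8 to 15 genes, rest on few genes each. Hadhb, a subunit of the mitochondrial trifunctional protein of fatty acid oxidation, stood at 250 CPM in early and 95.5 CPM in macroscopic barcodes, and Etfdh, which passes electrons from that oxidation to the respiratory chain, at 99.7 and 29.7 CPM, both lower. Of 12 measured genes of triglyceride synthesis and droplets, 0 were at least 2-fold higher and 5 lower (median -0.43, -1.10 to -0.03). Plin2, a lipid droplet coat protein, stood at 491 and 184 CPM, Plin5 at 101 and 27.9 CPM, and the lipase Pnpla2 at 60.2 and 28.1 CPM.

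Of 12 measured genes that supply acetyl-CoA, citrate and NADPH, 1 was at least 2-fold higher and 1 lower. The higher one, Slc25a1, the citrate carrier of mitochondria, stood at 63.9 and 129 CPM. The lower one, the X-linked Pdha1, a subunit of pyruvate dehydrogenase, stood at 66.8 and 27.1 CPM. Pklr, pyruvate kinase of liver, stood at 44.2 and 85.5 CPM, within 2-fold. Of 8 measured genes of cholesterol efflux and storage, 1 was higher (Abca1, a cholesterol exporter, at 45.1 and 97.6 CPM) and 3 lower, Npc2 (144 and 40.0 CPM) and Lcat (199 and 89.9 CPM) among them.

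The remaining lists split. Of 13 measured genes of SREBP processing and lipogenic regulation, 1 was higher (Prkaa1, at 9.40 and 20.9 CPM) and 1 lower (Usf2, at 107 and 42.4 CPM). Their median was 0.05. Of 15 measured genes of other sterol and fatty acid steps, 2 were higher (Acsl4, at 32.0 and 74.1 CPM, and Hacd3, at 25.4 and 51.1 CPM) and 1 lower (Fads3, at 46.1 and 12.7 CPM), with a median of 0.04.

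The second comparison lay within the macroscopic library, between the 58 hepatocyte barcodes without Malat1 and the 45 with it, at 1397429 and 3872359 UMIs. On the CPM scale most fatty acid genes and all 4 regulator or transport genes were lower in the barcodes without Malat1, while several sterol enzymes were not. Tm7sf2 did not pass the minimum, and of the other 32 genes 0 were at least 2-fold higher, against 1.66% of 8430 measured genes, and 16 were at least 2-fold lower, against 46.2%. The members' share was thus close to that of all genes. The median log2 ratio was -0.81 over all measured genes. It was -0.38 (-1.10 to 0.24) over sterol enzyme genes, which becomes 0.44 relative to all genes, and -2.25 (-3.22 to -0.18) over fatty acid genes, or -1.43 relative to all genes. On that relative scale some members were higher by 2-fold or more, Fdps (1.63), Fads2 (1.72) and Thrsp (1.57) among them. Others stayed lower, such as Acaca (-3.23) and Scd2 (-2.46), and Hmgcs1, Sqle, Lss, Insig1, Stard4 and Scd1 lay inside 2-fold. The shares of 1.66% and 46.2% are on the CPM scale and do not apply to relative values.

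The regulator or transport genes were lower by 2-fold or more on the CPM scale. Insig1 stood at 334 CPM with Malat1 and 154 CPM (134 to 176) without, a ratio of 0.460. Srebf1 stood at 173 and 42.2 CPM, Srebf2 at 75.2 and 19.3 CPM, and Stard4 at 92.7 and 29.3 CPM. Their ratios ran from 0.245 to 0.460.

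Of the fatty acid genes, 8 of 12 were at least 2-fold lower. Acaca stood at 70.8 and 4.29 CPM (6 UMIs), a ratio of 0.0607 (0.0221 to 0.134), the lowest of the list. Scd2 stood at 290 and 30.1 CPM, Fads1 at 253 and 27.2 CPM, and Fasn at 246 and 37.2 CPM. Elovl6 (30.7 and 4.29 CPM), Elovl5 (72.8 and 12.9 CPM), Acly (154 and 38.6 CPM) and Scd1 (886 and 296 CPM) were lower as well. Fads2 went the other way from its neighbour Fads1, at 56.0 CPM (48.8 to 64.0) with Malat1 and 105 CPM (88.9 to 124) without, a ratio of 1.88 (1.51 to 2.33). Thrsp stood at 138 and 233 CPM, a ratio of 1.69 (1.46 to 1.94).

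Of the sterol enzymes, 4 of 16 were at least 2-fold lower: Hmgcs1 (136 and 63.7 CPM), Sqle (148 and 61.5 CPM), Lss (33.8 and 14.3 CPM) and Hsd17b7 (25.3 and 5.72 CPM). Sc5d, at 226 and 119 CPM, lay just inside 2-fold. Fdps was higher without Malat1, at 256 CPM (240 to 272) and 449 CPM (415 to 486), a ratio of 1.76 (1.59 to 1.94). Ebp (ratio 1.69) and Pmvk (1.48), which phosphorylates mevalonate phosphate, were also higher within 2-fold.

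The order of these ratios followed transcript length. Spearman's rho between the log2 ratio and the longest coding transcript was -0.77 over 32 members and -0.77 over 8345 genes with a length, which share their libraries and are not independent. With genes ranked by length and cut into 4 equal groups, from shortest to longest, the median log2 ratio was 0.41, -0.41, -1.52 and -2.64. In the first comparison the same rho was 0.26 over the 33 members and -0.03 over 9072 genes. Acaca (9513 bases) and Fasn (10050 bases) have the longest transcripts of the list, and Pmvk (1194 bases), Thrsp (1277 bases) and Fdps (1382 bases) the shortest. Fads2 (3150 bases) and Fads1 (3460 bases) are of like length, with log2 ratios of 0.91 and -3.22. The barcodes without Malat1 also differed in depth and held a median of 0.220% mitochondrial UMIs, against 7.59% with it. The part of length, depth and mitochondrial RNA in these ratios was not tested, and whether the barcodes without Malat1 hold whole cells cannot be told from counts.

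**Figure D3:**
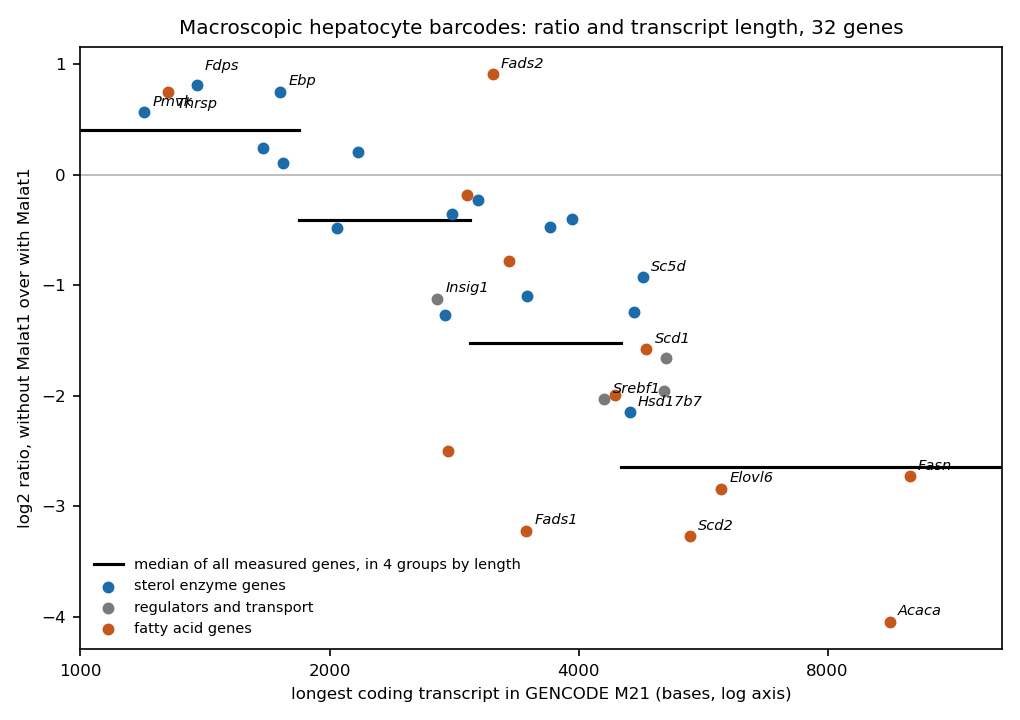
Log2 ratio of CPM without Malat1 over with Malat1 in macroscopic hepatocyte barcodes against the longest coding transcript (log axis) for the 32 measured members, with the median of all measured genes in each of 4 groups by length (black lines, drawn within the range of the axis). Acaca lies lowest (-4.04), followed by Scd2 (-3.27) and Fads1 (-3.22). Fads2 lies far above and Fads1 far below the median of their length group (-1.52).

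The third set of comparisons placed early hepatocyte barcodes with Malat1 beside the other classes of the same library. Most sterol enzymes were higher in hepatocyte than in macrophage and T cell barcodes, while duct barcodes had a like sum. Mvd was lower than in other macrophage barcodes, at 12.2 and 24.2 CPM, a ratio of 0.505 (0.254 to 0.932). Its interval against Kupffer barcodes held 1 (0.584 to 2.08). Against T cell barcodes the intervals of Pmvk, Nsdhl and Hsd17b7 held 1, and Mvd, Lss and Tm7sf2 did not pass the minimum. The 17 sterol enzyme genes summed to 1341 CPM in hepatocyte, 1161 CPM in duct, 390 CPM in other macrophage, 350 CPM in T cell and 239 CPM in Kupffer barcodes. The fatty acid genes summed to 769, 508, 239, 205 and 458 CPM in the same order. Classes meeting more than 1 rule were kept in each.

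Against Kupffer barcodes, 25 of 33 genes were at least 2-fold higher in hepatocyte barcodes (29.9% of all measured genes) and 1 was lower by as much (22.2%). The counts against the other classes below use the same 2-fold limit. The median log2 ratio was 2.09 (1.95 to 3.44) for sterol enzyme genes, 1.82 for fatty acid genes and 0.24 for all genes. Against other macrophage barcodes 25 of 33 were higher (32.2%) and 0 lower (18%), with medians of 2.15 and 2.70, beside 0.42 for all genes. Against T cell barcodes 19 of the 30 measured genes were higher (33.4%) and 0 lower (17.4%), with medians of 2.15 and 1.07, beside 0.37. Against duct barcodes 7 of 33 were higher (10.1%) and 3 lower (23.6%), with medians of 0.33 and 0.53, beside -0.39 for all genes.

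In early hepatocyte barcodes the 5 highest genes were Fdps (217 CPM), Ebp (210 CPM), Scd1 (150 CPM), Hmgcs1 (144 CPM) and Sc5d (142 CPM). In duct barcodes they were Msmo1 (163 CPM), Hmgcs1 (157 CPM), Fdps (133 CPM), Fdft1 (122 CPM) and Acly (96.3 CPM), 4 of them sterol enzymes. Duct barcodes had more Msmo1 (hepatocyte 69.6 CPM), more Acss2 (47.2 and 17.9 CPM) and more Scd2 (71.7 and 35.7 CPM) than hepatocyte barcodes. They had nearly no Scd1, at 3.32 CPM (1.08 to 7.75), in 3.96% of barcodes with a median of 11635 UMIs. With Scd1, 7 genes were at least 2-fold higher in hepatocyte than in duct barcodes. The others were Thrsp (ratio 4.11), Dhcr7 (4.04), Acaca (2.73), Fads1 (2.66), Ebp (2.26) and Sc5d (2.08), of which Dhcr7, Ebp and Sc5d are sterol enzymes. Hepatocyte markers summed to 6031 CPM in duct barcodes, and 10 duct barcodes also met the hepatocyte rule.

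In Kupffer barcodes, the resident macrophages of liver, the 5 highest were Acly (169 CPM), Scd1 (100 CPM), Scd2 (60.3 CPM), Ebp (55.4 CPM) and Fads1 (43.9 CPM). Acly was the 1 gene at least 2-fold lower in hepatocyte barcodes, at 77.1 CPM, a ratio of 0.456 (0.360 to 0.571). Scd2 was lower there within 2-fold, at 35.7 CPM, a ratio of 0.592 (0.413 to 0.827). At 1000 UMIs per barcode Scd1 was expected in 11.5% of Kupffer and 11.3% of hepatocyte barcodes, 0.384% of duct and 0.377% of T cell barcodes. Alb stood at 234 CPM in Kupffer barcodes that met no other rule, where Scd1 was at 100 CPM, and at 20470.5 CPM in hepatocyte barcodes. The part of free hepatocyte RNA in the Kupffer levels was not tested.

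Elovl6, Fads2 and Sqle were nearly absent from Kupffer barcodes, at 1.87, 0.432 and 1.01 CPM, against 34.8, 21.6 and 65.8 CPM in hepatocyte barcodes. The ratio was 65.3 (30.1 to 168) for Sqle and 18.6 (9.66 to 38.1) for Elovl6. These 3 genes stand for separate steps, squalene epoxidation, chain elongation and desaturation of essential fatty acids.

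In other macrophage barcodes the 5 highest were Ebp (90.6 CPM), Acly (81.2 CPM), Msmo1 (42.6 CPM), Fdps and Srebf2 (41.0 CPM each). Scd1 stood at 18.5 CPM there, and Fads2 had 0 UMIs, which allows up to 1.23 CPM. In T cell barcodes the 5 highest were Sc5d (85.4 CPM), Acly (81.1 CPM), Stard4 (68.3 CPM), Ebp (59.8 CPM) and Srebf2 (55.5 CPM). There Mvd, Sqle, Fads2, Me1 and Thrsp had 0 UMIs, which allows up to 12.8 CPM each. The T cell sum held 234246 UMIs, and its ratios are the least precise.

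**Figure D4:**
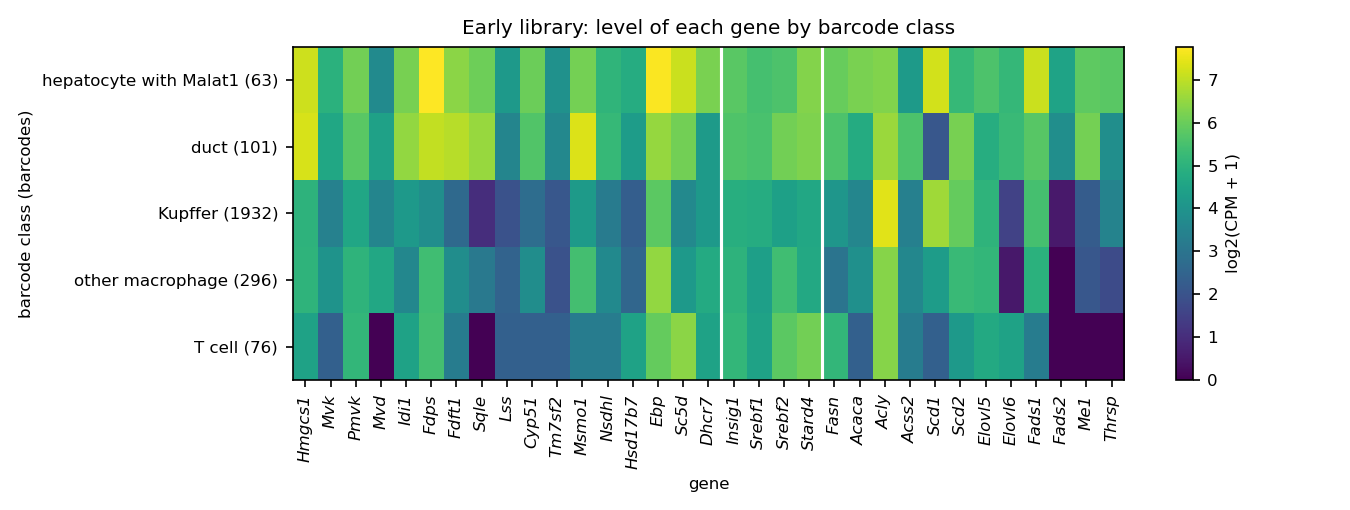
Level of each gene, as log2(CPM + 1), in the summed barcodes of 5 classes of the early library, with the number of barcodes beside each class and white lines between sterol enzymes, regulators and fatty acid genes. Scd1 is high in hepatocyte (150 CPM) and Kupffer (100 CPM) barcodes and low in duct barcodes (3.32 CPM), and Acly is highest in Kupffer barcodes (169 CPM).

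In the macroscopic library the non-hepatocyte classes were small, and ratios between the libraries in them were given above for X-linked genes only. Its 20 T cell barcodes summed to 609 CPM over the 33 genes, against 734 CPM in the early T cell barcodes, and its 12 other macrophage barcodes to 809 CPM, against 747 CPM. In hepatocyte barcodes with Malat1 the same sums were 4403 CPM and 2334 CPM. The macroscopic other macrophage barcodes also held 8494 summed CPM of hepatocyte markers. Scd1 in the 12 other macrophage barcodes stood at 16.8 CPM (6.16 to 36.5), against 18.5 CPM (13.5 to 24.7) in the early library.

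Finally the genes were compared with each other across hepatocyte barcodes, by Spearman's rho of UMIs per 10000. Pairs were formed among genes with a UMI in at least 20% of barcodes, and all barcodes of a group share 1 library and differ in depth. Sterol enzyme pairs had a median rho of 0.25 in the 67 early barcodes (the 4 without Malat1 included), 0.24 in the 45 macroscopic ones with Malat1 and 0.38 in the 58 without it. Fatty acid pairs had 0.19, 0.35 and 0.23. All pairs of genes had 0.097, 0.165 and 0.198, so part of the value is common to all genes.

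The 3 pairs with the highest rho in early barcodes were Hmgcs1 with Fdft1 (0.64), Cyp51 with Msmo1 (0.55) and Idi1 with Sqle (0.54). In macroscopic barcodes with Malat1 the 3 highest were Pmvk with Fdps (0.69), Fdps with Cyp51 (0.69) and Srebf2 with Elovl6 (0.68). In those without Malat1 they were Idi1 with Insig1 (0.73), Idi1 with Fdps (0.69) and Fdps with Insig1 (0.69). No pair was among the 3 highest in more than 1 group.

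Between the pathways rho was lower in the early library, where it was also lowest over all pairs of genes. The sum of the sterol enzymes and the sum of the fatty acid genes in a barcode had a rho of 0.23 in early barcodes, 0.52 in macroscopic ones with Malat1 and 0.50 in those without. Pairs of a sterol enzyme and a fatty acid gene had medians of 0.14, 0.23 and 0.22, beside 0.097, 0.165 and 0.198 for all pairs. The fatty acid sum also went with the percentage of Alb, with a rho of 0.45, 0.39 and 0.57. Sums and depth had a rho of 0.33 to 0.34 in early barcodes and 0.04 to 0.11 in macroscopic ones with Malat1, and 0.27 to 0.37 in those without.

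Depth mattered for these values. With barcodes thinned to 5000 UMIs the median over sterol pairs was 0.16, 0.079 and 0.14 in 58, 40 and 55 barcodes, against -0.00070, 0.000058 and 0.12 for all pairs. The median over fatty acid pairs was 0.028, 0.17 and 0.38, the last over 3 pairs only. The pair with the highest rho was then Cyp51 with Msmo1 in early barcodes (0.41) and Msmo1 with Dhcr7 in macroscopic barcodes with (0.46) and without Malat1 (0.46). Values this weak in sparse counts are no finding.

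**Figure D5:**
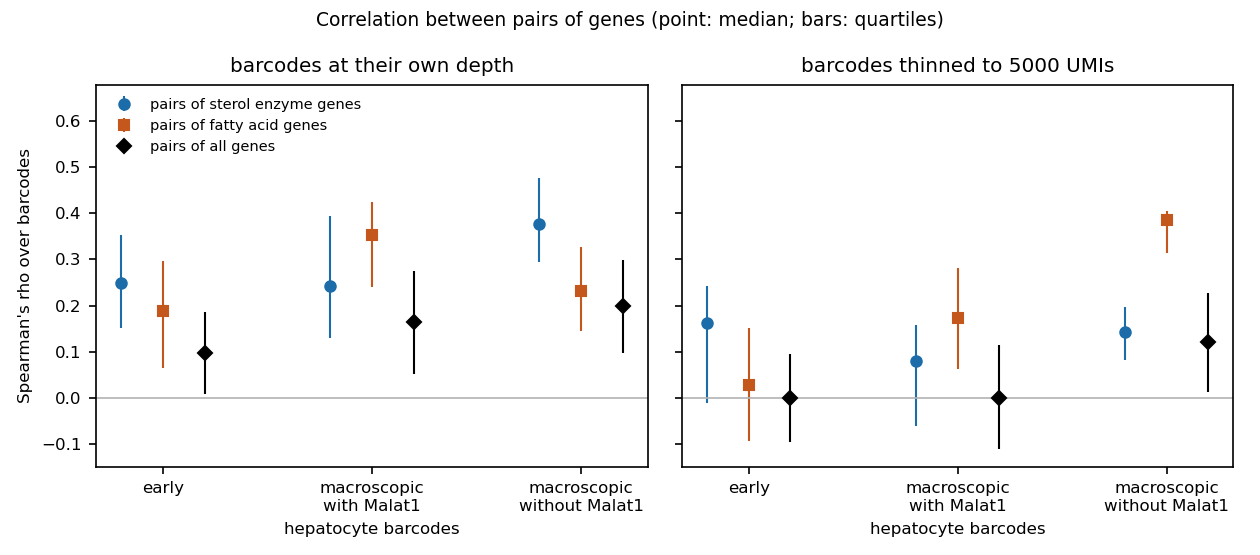
Spearman's rho between pairs of genes across hepatocyte barcodes, at their own depth (left) and thinned to 5000 UMIs (right); points are medians over pairs and bars the quartiles, for sterol enzyme pairs, fatty acid pairs and all pairs of genes. Medians are lower after thinning in all but the fatty acid pairs of macroscopic barcodes without Malat1 (0.23 and 0.38), where 3 pairs remained.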

How the data were processed

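Per the labels' protocols, YFP-sorted cells went into 10x 3' v3 libraries. The deposited matrices hold a whole-number UMI count for each gene and barcode, not normalized. Cell Ranger 3.0.2, mm10 as the build, and Seurat 2.3.0, with no role given, come from the submitters' processing notes, and the file headers give the same software version 3.0.2. The annotation used for counting and the filtering of barcodes are not given in the sources used here. The libraries held 3221 early and 256 macroscopic barcodes, with 12637053 and 7271368 UMIs. These are 3' tag counts, so levels of genes were compared without division by length.

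Barcodes with at least 1000 UMIs were assigned by markers: Alb at or above 0.5% of UMIs, Krt19 and Krt7 together at least 2 UMIs, Clec4f, Cd5l and Marco at least 3, Gpnmb and Mmp12 at least 3, Cd3e and Trbc2 at least 2. UMIs were summed per class and given as CPM with exact Poisson intervals, ratios with exact conditional binomial intervals and shares with Clopper-Pearson intervals. Medians carry order-statistic intervals. A gene was measured with at least 10 CPM in 1 sum and 20 UMIs in both together. A sum of 0 was given the limit that 3 counts allow. Shares at 1000 or 5000 UMIs are hypergeometric expectations. Positions and transcript lengths are from GENCODE M21 (GRCm38) and promoters from RefSeq. Named with values were members at least 2-fold different with an interval without 1, the 5 highest members per class, the 3 highest pairs and up to 3 genes per other list; further members were named after their values were seen. The members and lists were chosen with earlier results of these data known. Python 3.11.15, numpy 2.4.6, scipy 1.17.1 and pandas 2.3.3 were used, and the computations were tested on simulated data. Other settings of the class rules, the scaling and the minimums were tried. One gene that the rule for named genes picks is not reported here.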

Additional observations from a re-analysis of the deposited data

How the results depend on the processing

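No paired analysis was possible because each stage has 1 library, and for the same reason no library could be left out. The stage medians kept their sign and stayed within their main intervals under all settings tried. The log2 ratio of Scd1 between the libraries was 3.16 with Alb at or above 0.25% and 2.29 over all Alb barcodes, against 2.57. The count of members lower by 2-fold or more in macroscopic barcodes was 1 with a minimum of 50 CPM and 50 UMIs and 1 over autosomal genes only. Median-of-ratios scaling moved the sterol median of barcodes without Malat1 over those with it from -0.38 to 0.44, the members higher there from 0 to 7 and the members lower from 16 to 10. The share of all genes under that scaling is not given. The same scaling gave 1.85 (Kupffer) and 0.72 (duct) for the sterol medians and 0.70 (T cell) for the fatty acid median of early hepatocyte barcodes. Without Malat1, 1 member was at least 2-fold higher with equal weight per barcode, with Alb at or above 1% and with at most 25% mitochondrial UMIs. Thinning to 5000 UMIs gave median correlations of 0.028 (early, fatty acid), 0.079 and 0.17 (macroscopic with Malat1, sterol and fatty acid), and 0.14 and 0.38 (without Malat1). With genes in at least 50% of barcodes the fatty acid medians were 0.33 (early) and 0.43 (without Malat1). The settings at least 5000 UMIs per barcode, without the 5 deepest macroscopic barcodes and autosomal genes only were chosen after seeing the data. Depth limits most the T cell sums and the early genes with few UMIs.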
